A study of Mus musculus with 15 samples.

Results

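The glutathione and antioxidant genes described here were 60 of the 14392 genes in a table of RNA levels in mouse zygotes and 2-cell embryos. They were taken by name, as every gene whose symbol starts with Gsta, Gstk, Gstm, Gsto, Gstp, Gstt, Gstz, Gpx, Prdx, Txn, Sod, Gcl or Glrx, together with Gsr, Gss, Cat, Hmox1, Nqo1, Nfe2l2 and Keap1. The rule itself uses no measured value. The 12 annotated coding genes of these families that the table does not list include Gstm2, Gstm3, Gpx8 and Sod3. A symbol that starts with Txn can belong to a protein outside antioxidant defence, and Txnl4a and Txnl4b, which are known as splicing factors, were kept because the names fit.

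RNA-seq was performed on 8 libraries, with 2 replicates in each of 4 groups and 10 embryos in each library. WT embryos came from wild-type mothers. The embryos called cKO came from Usp16 fl/fl;Gdf9-Cre mothers, in which Cre is driven by the oocyte gene Gdf9 and removes Usp16 from the oocyte from the primordial follicle stage on. Their genotype label is Usp16 maternal -/ paternal +, since the fathers were wild type, so a cKO embryo keeps an intact paternal copy. All mice were C57BL/6, and females were superovulated before mating in both genotypes. Usp16 encodes a deubiquitinase that removes ubiquitin from histone H2A. Each group was measured at the zygote stage, before the main onset of embryonic transcription, and at the 2-cell stage, when the embryonic genome becomes active and stored maternal RNA is cleared. Nothing states that the 2 replicates of a group came from separate females, so the p-values below measure only the spread between these libraries.

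Glutathione is a small sulphur-containing peptide made by glutamate-cysteine ligase (catalytic subunit Gclc, modifier subunit Gclm) and glutathione synthetase (Gss), and returned to its reduced form by glutathione reductase (Gsr). Transferases attach it to toxic compounds, while glutathione peroxidases and peroxiredoxins use glutathione or thioredoxin to break down peroxides. The transcription factor NRF2 (Nfe2l2) turns on many of these genes under oxidative stress and is kept low by KEAP1. The oocyte builds up a large store of glutathione before fertilization, and the early embryo is sensitive to oxidants.

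Values are FPKM (fragments scaled for transcript length and for the number of fragments mapped in the library), so levels can be compared between genes. The authors had set every value below 1 to 1, so a gene listed at 1 is at a floor and a fold change against it is a lower bound. They had also left out every gene below 1 in all libraries, so a gene above the floor in a single group is in the table only through that group and had to differ there. Among the 60 genes, 38 lay above the floor in all 8 libraries, while 12 were at the floor in all 4 zygote libraries. Usp16 itself was 184.4 and 187.5 FPKM in WT zygotes and 16.8 and 22.0 in cKO zygotes. In 2-cell embryos it was 168.4 and 183.1 in WT and 167.7 and 84.8 in cKO. The labelled loss was thus visible in zygotes (log2 difference -3.21, SE 0.34, adjusted p = 0.191), with no overlap between the genotypes but without passing the test. At the 2-cell stage the difference was -0.55 (SE 0.34, adjusted p = 0.263). The summed FPKM of the second cKO 2-cell library was 771000, against 547800 to 593300 in the other 7. The median genotype difference is therefore also given without it. Replicates differed by more than 3-fold for 13.3% of all genes in cKO 2-cell embryos, 1.38% in WT 2-cell embryos and under 1% in either zygote group.

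The 60 genes together held 1.19% and 0.982% of the summed FPKM in WT zygotes and 1.02% and 0.977% in cKO zygotes. The share was 0.763% and 0.730% in WT 2-cell embryos and 0.485% and 0.469% in cKO 2-cell embryos. Both cKO 2-cell libraries lay below both WT ones, whereas the genotypes overlapped at the zygote stage. A few abundant genes set most of this total. Prdx1 and Prdx2 were the most abundant, at 1554 to 2194 and 1138 to 1775 FPKM in zygotes, and Prdx2 was 1378 and 1305 FPKM in WT 2-cell embryos but 309 and 589 in cKO 2-cell embryos.

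**Figure D1:**
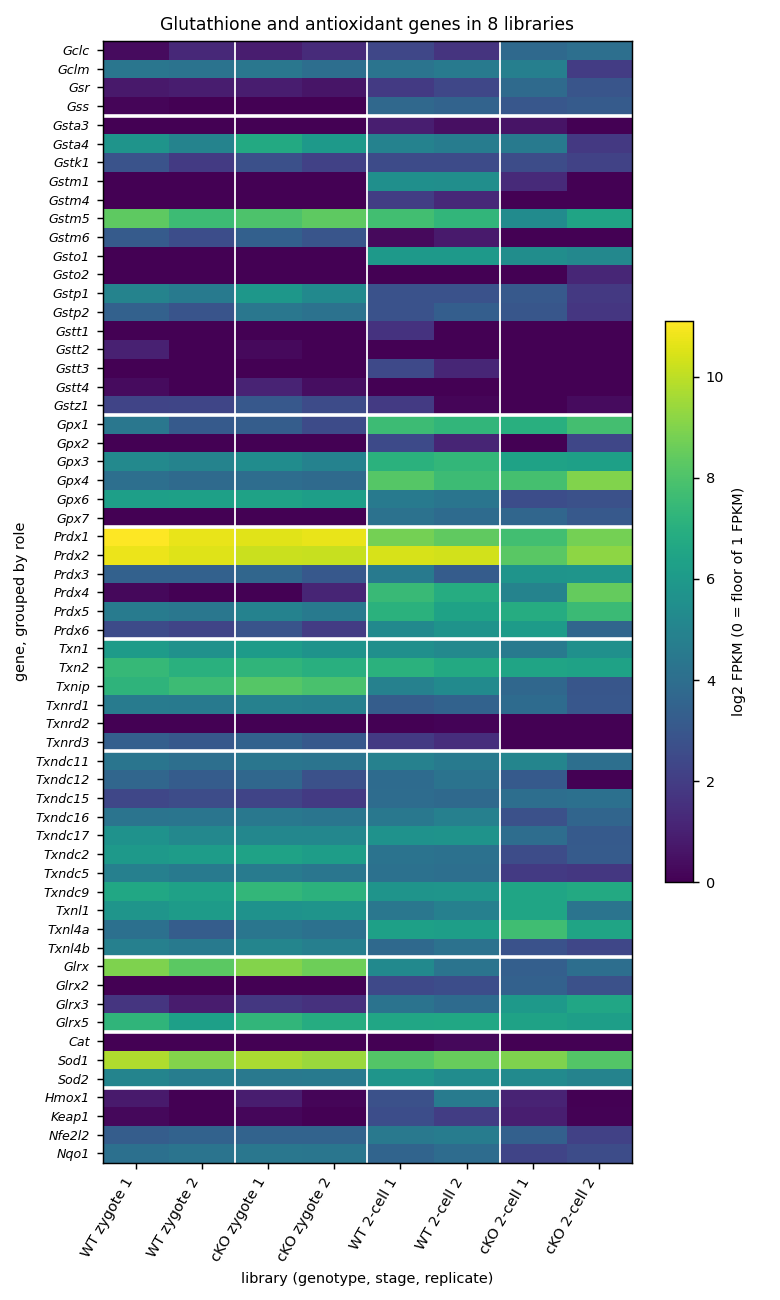
Log2 FPKM of the 60 genes (rows, grouped by role and separated by white lines) in the 8 libraries (columns, labelled by genotype, stage and replicate), with 0 for the floor of 1 FPKM. The 12 genes at the floor in all 4 zygote libraries are dark in the left columns, and Prdx1 and Prdx2 are the brightest rows in zygotes.

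To find which of these genes depended on the genotype at the 2-cell stage, cKO was compared with WT by limma on log2(FPKM + 1), fitted on all 14392 genes. In cKO 2-cell embryos 19 of the 60 genes passed as lower, with an adjusted p of less than 0.05 (31.7%, against 24.6% of all genes) and 5 were higher (8.33%, against 6.16% of all genes), while 36 passed in neither direction. Of the 60, Cat, Gstm4, Gstt1, Gstt3 and Txnrd2 were above the floor only in WT 2-cell embryos, and Gstm4 and Gstt3 were among the 19. Without such genes 17 of 55 were lower (30.9%, against 23.8% of 13182 genes). Transferases, peroxidases, thioredoxin-domain genes and the 4 genes of the NRF2 axis were among the lower ones, and Glrx3, Gclc, Prdx3, Gsr and Txndc9 were the 5 higher ones. The median log2 difference was -0.47 over the 60 genes and -0.30 over all genes, so a downward shift was shared by the whole table. The log2 ratio of cKO to WT was also taken, without genes at the floor in any of the 4 2-cell libraries. Its medians were -0.34 (45 of the 60 genes) and -0.31 (9086 genes). The measure and the gene set both changed here, so the smaller gap cannot be put down to the floor. A limma fit of genes averaging 3 FPKM or more held 49 of the 60 genes and 9370 in all. Its median log2 differences were -0.50 and -0.46. The cKO libraries were both below WT for 28 genes (46.7%, against 43.4% of all genes) and above them for 8 genes (13.3%, against 14.0%). By the ratio of group means, 12 genes were more than 3-fold lower (20.0%, against 13.5%) and 3 were more than 3-fold higher (5.0%, against 2.84%).

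These calls rest on a spread estimated over all 4 groups. When only the 4 2-cell libraries were fitted, no gene of the table passed and the smallest adjusted p among the 60 genes was 0.0598. Without adjustment, 19 of the 60 then had a p of less than 0.05 and a lower level (23.7% of all genes), and 4 a higher one (5.69%). With a separate weight for each group, Gpx6, Gstm1 and Gstm4 passed as lower (5.93% of all genes did) and none of the 60 as higher (0.834%). Scaling each library by its median ratio moved the median of all genes from -0.30 to 0.0 and the calls from 19 lower and 5 higher to 9 and 6 (12.1% and 9.98% of all genes). The 9 were Gpx6, Gstm1, Gstm4, Keap1, Nfe2l2, Txndc17, Txndc5, Txnip and Txnl4b. The other genes lower as reported, among them Prdx2, Gpx3, Gsto1, Txndc2, Txndc16 and Txnrd3, lost the call under this scaling. Without the second cKO 2-cell library the median log2 difference was -0.38 over the 60 genes and -0.24 over all genes. Without the second WT 2-cell library the medians were -0.61 and -0.28, and fewer genes passed, both among the 60 and over all genes. Gpx6, Gstm1, Keap1, Nqo1, Txndc17, Txndc5 and Glrx3 passed whichever library was left out. So did Gstm4, which carries no weight because of the filter described above. Each library pools whole embryos, so a moderate decrease in every embryo or cell and a strong one in a few cannot be told apart. FPKM is scaled to the fragments mapped in each library, so it does not measure the total RNA of an embryo.

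**Figure D2:**
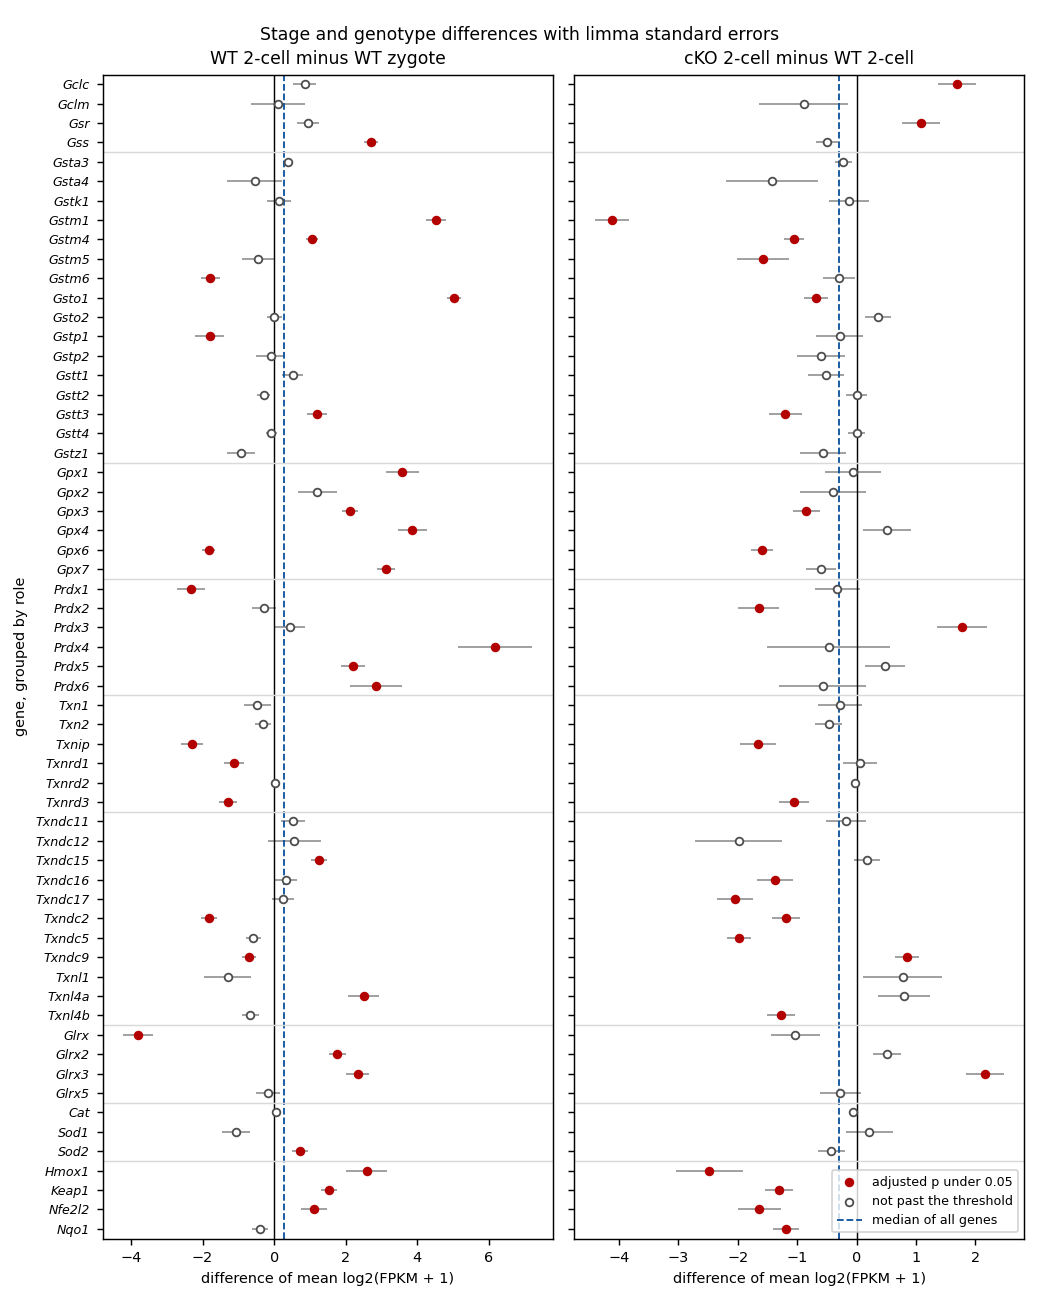
Difference of mean log2(FPKM + 1) for each of the 60 genes (points) with its limma standard error (bars), from WT zygote to WT 2-cell (left) and from WT to cKO at the 2-cell stage (right). Filled points have an adjusted p under 0.05, the dashed line is the median of all 14392 genes (0.28 on the left and -0.30 on the right), and the x axes of the panels differ in range. On the right, 19 filled points lie below 0 and 5 above it.

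The regulators were examined first. NRF2 itself (Nfe2l2, chr2:75513570-75542698 on mm9) was 9.74 and 11.3 FPKM in WT zygotes, 11.7 and 11.5 in cKO zygotes, 22.5 and 25.3 in WT 2-cell embryos and 10.7 and 4.49 in cKO 2-cell embryos. Its inhibitor Keap1 (chr9:21034174-21043776) was between 1 and 1.17 FPKM in all 4 zygote libraries, reached 6.25 and 3.99 in WT 2-cell embryos and was 1.89 and 1.05 in cKO 2-cell embryos. Thus both partners rose from zygote to 2-cell in WT (log2 difference 1.11, SE 0.36, adjusted p = 0.0450 for Nfe2l2, and 1.53, SE 0.23, adjusted p = 0.00248 for Keap1), and cKO 2-cell libraries lay below WT for both. The difference between cKO and WT was -1.64 (SE 0.36, adjusted p = 0.0199) for Nfe2l2 and -1.30 (SE 0.23, adjusted p = 0.00994) for Keap1. Leaving out a library took the adjusted p of Nfe2l2 up to 0.113 between genotypes and up to 0.188 between stages, where the call held in 2 of 8 such fits. The stage call of Nfe2l2 was also lost under median-ratio scaling (adjusted p = 0.0881).

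Hmox1 encodes heme oxygenase and Nqo1 a quinone reductase, and both are widely used as readouts of NRF2 activity. Hmox1 was at most 1.84 FPKM in every zygote library, and it reached 6.77 and 24.3 in the WT 2-cell libraries but 2.15 and 1 in the cKO ones. The replicates of Hmox1 in WT 2-cell embryos were more than 3-fold apart, yet both lay above both cKO values (log2 difference -2.48, SE 0.57, adjusted p = 0.0215). The call on Hmox1 held in 2 of the 8 fits that left out a library (adjusted p up to 0.0968) and was lost under median-ratio scaling (0.0581). Nqo1 was 16.9 and 19.5 FPKM in WT zygotes, 20.9 and 20.6 in cKO zygotes, 12.0 and 15.3 in WT 2-cell embryos and 4.86 and 5.96 in cKO 2-cell embryos. Its cKO values lay slightly above WT in zygotes without passing the test (0.18, SE 0.22, adjusted p = 1) and below WT at the 2-cell stage, where the test passed (-1.19, SE 0.22, adjusted p = 0.0110). The 2-cell call on Nqo1 was lost under median-ratio scaling (limma adjusted p = 0.0809). All 4 genes of this group passed as lower in cKO 2-cell embryos in the reported fit, as 24.6% of all genes did.

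**Figure D3:**
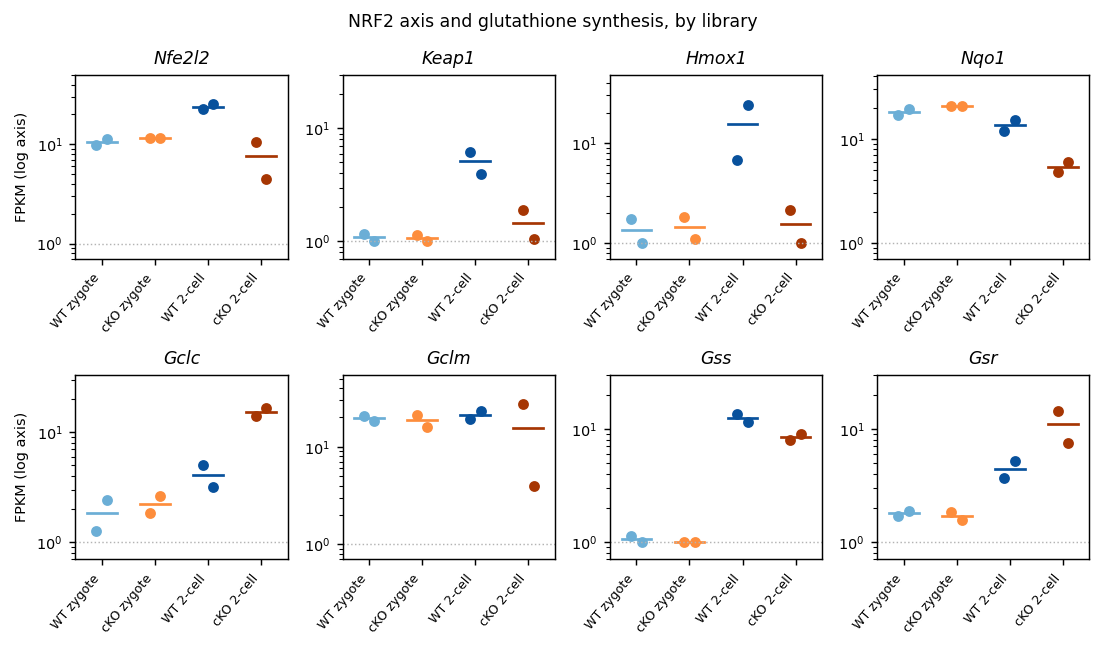
FPKM (log axis) of the 4 genes of the NRF2 axis (top row) and the 4 genes of glutathione synthesis and recycling (bottom row), with a point for each library, a bar for the mean of 2 libraries and a dotted line at the floor of 1 FPKM. In the top row both cKO 2-cell points lie below both WT 2-cell points in every panel, and in the bottom row they lie above them for Gclc and Gsr.

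NRF2 acts through the antioxidant response element, whose core was searched here as TGACNNNGC on either strand (GCNNNGTCA when read from the other strand) in RefSeq promoter windows on GRCm38.p6, from 250 bases before to 50 bases after the start of each gene. Of the 60 genes, 52 had a window and 10 of these (19.2%) held the core, against 16.9% of the 10168 genes of the table with a window and 14.0% of all 27025 genes with one. The core was found in 4 of the 18 lower genes with a window (22.2%) and in 0 of the 3 higher ones. A match is a string of letters and says nothing of binding. The windows of the 4 lower genes are shown with the core in capitals, together with those of Gclm, Prdx1 and Txnrd1, which are textbook NRF2 targets and passed in neither direction in cKO 2-cell embryos. The core was also found in Gsta3, Sod1 and Txndc11, which are not shown. The windows of Nqo1 and Keap1 held none, and Gclc, Gsr and Hmox1 had no window. Each is written 5′ to 3′ on the strand of its gene.
Nfe2l2, chr2:75704865-75704913, minus strand: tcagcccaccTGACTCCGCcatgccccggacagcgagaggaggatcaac
Gstm5, chr3:107895782-107895850, plus strand: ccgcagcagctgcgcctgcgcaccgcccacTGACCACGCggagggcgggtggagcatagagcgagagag
Txndc2, chr17:65639921-65639989, minus strand: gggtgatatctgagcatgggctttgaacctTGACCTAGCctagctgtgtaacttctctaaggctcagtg
Txndc5, chr13:38528014-38528082, minus strand: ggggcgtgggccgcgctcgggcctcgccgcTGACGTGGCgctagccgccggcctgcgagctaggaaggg
Gclm, chr3:122245393-122245461, plus strand: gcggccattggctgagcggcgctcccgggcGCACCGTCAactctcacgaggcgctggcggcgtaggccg
Prdx1, chr4:116685436-116685504, plus strand: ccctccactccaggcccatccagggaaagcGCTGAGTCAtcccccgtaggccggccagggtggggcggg
Txnrd1, chr10:82859084-82859152, plus strand: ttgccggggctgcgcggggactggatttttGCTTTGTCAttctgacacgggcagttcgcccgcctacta

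In the first 4 sequences the core reads in the direction of the gene, and in the last 3 it lies on the opposite strand. The distance of the first letter of the core from the start site ranged from 42 bases upstream in Gstm5 to 240 bases upstream in Nfe2l2.

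The genes of glutathione synthesis and recycling moved the other way or passed no test. Gclc (chr9:77602342-77642292), the catalytic subunit of the rate-limiting enzyme, was 1.26 and 2.44 FPKM in WT zygotes and 1.84 and 2.61 in cKO zygotes. At the 2-cell stage it was 5.08 and 3.18 in WT and 14.0 and 16.7 in cKO, a 3.71-fold higher mean in cKO (log2 difference 1.69, SE 0.32, adjusted p = 0.0118). Gsr, which regenerates reduced glutathione, was between 1.56 and 1.87 FPKM in zygotes, 3.64 and 5.18 in WT 2-cell embryos and 14.3 and 7.53 in cKO 2-cell embryos (1.09, SE 0.32, adjusted p = 0.0464). For both genes every cKO 2-cell library lay above every WT one. With a library left out, the adjusted p reached 0.0656 for Gclc and 0.205 for Gsr.

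Gclm, the modifier subunit that works with Gclc, did not follow it. Its level was 15.9 to 21.4 FPKM in zygotes, 19.2 and 23.1 in WT 2-cell embryos, and 27.4 and 3.98 in the 2 cKO 2-cell libraries, which lay on either side of the WT values (-0.89, SE 0.75, adjusted p = 0.404). Gss, which adds the last amino acid, was at most 1.11 FPKM in zygotes and rose to 13.5 and 11.4 in WT 2-cell embryos (2.71, SE 0.19, adjusted p = 0.000190). Its levels in cKO 2-cell embryos were 7.99 and 9.08, below both WT values without passing the test (-0.50, SE 0.19, adjusted p = 0.101).

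Of the 16 glutathione transferases, 5 were lower in cKO 2-cell embryos (24.6% of all genes were), none was higher (6.16%) and 11 passed in neither direction. Gstm4 and Gstt3, among the 5, were above the floor only in WT 2-cell embryos. They could only come out lower and carry no weight in this count. The cluster of mu-class genes on chromosome 3 gave the largest difference among the 60 genes and also showed how unlike its members were. Gstm1 (chr3:107815173-107820891) was at the floor in all 4 zygote libraries, reached 45.5 and 44.6 FPKM in WT 2-cell embryos and was 2.50 and 1 in cKO 2-cell embryos. The WT mean was at least 25.7-fold above the cKO mean (log2 difference -4.12, SE 0.29, adjusted p = 0.000936). Gstm4 (chr3:107843326-107847812), also at the floor in every zygote library, was 4.00 and 2.44 FPKM in WT 2-cell embryos and at the floor in both cKO ones. It is in the table through its WT 2-cell values alone, so its difference is given as a description (-1.05, SE 0.17). Gstm5 (chr3:107698739-107701604), the most abundant transferase, was already at 322.7 and 194.3 FPKM in WT zygotes and 253.4 and 325.2 in cKO zygotes. At the 2-cell stage Gstm5 was 211.0 and 158.4 in WT and 41.2 and 89.3 in cKO (-1.57, SE 0.44, adjusted p = 0.0388). Gstm6 (chr3:107741765-107746667) fell in WT from 9.20 and 6.14 FPKM in zygotes to 1.23 and 1.73 in 2-cell embryos (-1.79, SE 0.27, adjusted p = 0.00237) and was at the floor in both cKO 2-cell libraries.

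The 4 mu-class genes thus covered 3 patterns in WT embryos, with Gstm1 and Gstm4 appearing at the 2-cell stage, Gstm6 declining and Gstm5 passing the stage test in neither direction (-0.45, adjusted p = 0.426). Of the 50-base words in annotated Gstm1 transcripts, 12.7% also occur in Gstm3, Gstm2-ps1 or Gstm2, none of which the table lists, so reads from those genes could have been counted in Gstm1. The call on Gstm5 was lost in 7 of the 8 fits that left out a library (adjusted p up to 0.202).

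Elsewhere among the transferases, Gsto1 (chr19:47929460-47939280), an omega-class enzyme, was at the floor in all zygotes and at 64.3 and 63.6 FPKM in WT 2-cell embryos. In cKO 2-cell embryos it was 43.0 and 36.4, lower than in WT but far above the floor (cKO against WT -0.68, SE 0.20, adjusted p = 0.0466, and up to 0.0863 with a library left out). Gstt3 was at the floor in zygotes and in both cKO 2-cell libraries and at 5.39 and 2.32 FPKM in WT 2-cell embryos (-1.20, SE 0.28), and as for Gstm4 this is a description, since WT 2-cell values alone put it in the table. Gstp1 fell from 30.8 and 23.9 FPKM in WT zygotes to 7.04 and 7.02 in WT 2-cell embryos (-1.81, SE 0.40, adjusted p = 0.0105, and up to 0.0743 with a library left out). It shares 67.5% of its 50-base words with the neighbouring Gstp2, so the split of reads between these pi-class genes is uncertain. Gsto2, Gstt2 and Gstt4 were at the floor in both WT 2-cell libraries and could not have been seen to fall.

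Of the 6 glutathione peroxidases, 4 rose from zygote to 2-cell in WT embryos (34.2% of all genes did) and Gpx6 fell. In cKO 2-cell embryos 2 of the 6 were lower (24.6% of all genes were) and none was higher. Gpx4, which repairs oxidized lipids in membranes, went from 16.5 and 14.5 FPKM in WT zygotes to 287.3 and 195.9 in WT 2-cell embryos, a 15.6-fold higher mean (3.86, SE 0.40, adjusted p = 0.000595). It was 227.2 and 508.0 FPKM in cKO 2-cell embryos, overlapping the WT values (0.52, SE 0.40, adjusted p = 0.368). Gpx1, the common cytosolic form, rose from 21.2 and 8.92 FPKM to 196.6 and 158.8 in WT (3.58, SE 0.47, adjusted p = 0.00140) and was 130.1 and 219.4 in cKO 2-cell embryos. Gpx7 was at the floor in every zygote library and at 18.2 and 14.7 FPKM in WT 2-cell embryos (3.12, SE 0.25, adjusted p = 0.000239), and its cKO values of 12.6 and 8.63 were both lower without passing the test.

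Gpx3 and Gpx6 were the peroxidases that were lower in cKO. Gpx3, the secreted form, was 30.7 to 42.3 FPKM in zygotes, 137.1 and 163.7 in WT 2-cell embryos and 85.1 and 80.2 in cKO 2-cell embryos (-0.85, SE 0.23, adjusted p = 0.0349, and up to 0.128 with a library left out). Gpx6 (chr13:21404086-21411493) was 73.9 to 83.8 FPKM in the 4 zygote libraries and declined in WT to 23.0 and 19.9. It was 6.19 and 6.68 in cKO 2-cell embryos, below both WT values (-1.59, SE 0.18, adjusted p = 0.00282).

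**Figure D4:**
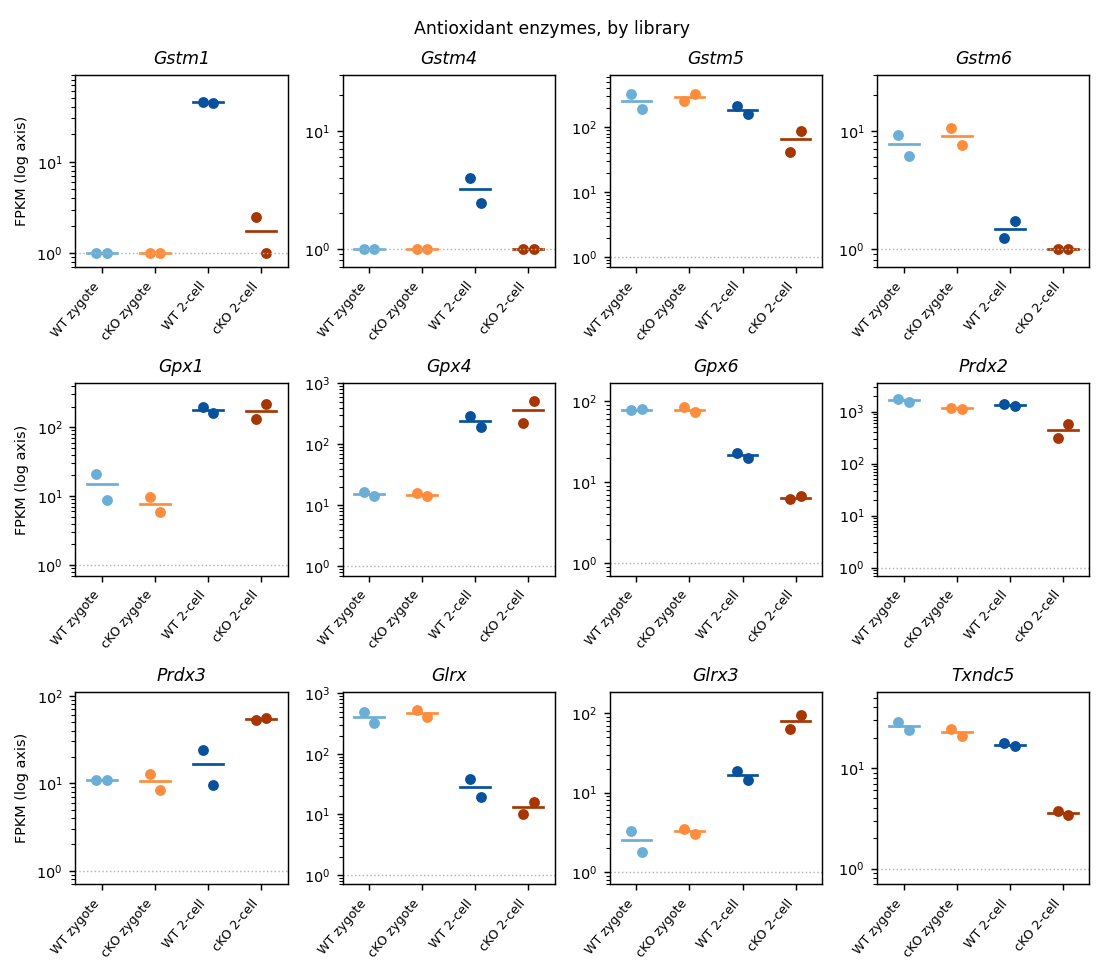
FPKM (log axis) of 12 transferases, peroxidases, peroxiredoxins, glutaredoxins and a thioredoxin-domain gene in each library (points), with bars at the mean of 2 libraries and a dotted line at the floor of 1 FPKM. The y axes differ between panels. Gstm1 is at 45.5 and 44.6 FPKM in WT 2-cell embryos against 2.50 and 1 in cKO ones, while Gpx1 and Gpx4 overlap between the genotypes.

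Among the 6 peroxiredoxins, abundant enzymes that reduce hydrogen peroxide, 1 was lower in cKO 2-cell embryos (24.6% of all genes were), 1 was higher (6.16%) and 4 passed in neither direction. Prdx2 (chr8:87493486-87498733), the most abundant of the 60 genes on average, was 1775 and 1522 FPKM in WT zygotes and 1177 and 1138 in cKO zygotes. The genotypes did not overlap there, but the difference did not pass (-0.51, SE 0.34, adjusted p = 1). At the 2-cell stage the values of 309 and 589 in cKO against 1378 and 1305 in WT did (-1.65, SE 0.34, adjusted p = 0.0155, and up to 0.0892 with a library left out). Prdx3, the mitochondrial form, was 8.38 to 12.8 FPKM in zygotes, 24.2 and 9.46 in WT 2-cell embryos and 53.3 and 55.8 in cKO 2-cell embryos (1.77, SE 0.43, adjusted p = 0.0256, and up to 0.0857 with a library left out).

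Prdx1 fell in WT from 2194 and 1716 FPKM in zygotes to 438.4 and 337.8 in 2-cell embryos (-2.33, SE 0.38, adjusted p = 0.00339), and its cKO 2-cell values of 214.5 and 438.9 overlapped these. In the opposite direction, Prdx4 (chrX:151758461-151775297), the form of the endoplasmic reticulum, went from 1.17 and 1 FPKM in WT zygotes to 186.2 and 118.4 in WT 2-cell embryos. That was the largest stage difference among the 60 genes (6.16, SE 1.04, adjusted p = 0.00380, and up to 0.0521 with a library left out). The cKO 2-cell libraries gave 31.3 and 358.8 FPKM for Prdx4, on either side of WT, so no genotype difference could be read (-0.47, SE 1.04, adjusted p = 0.773). Prdx6 likewise rose in WT (2.84, SE 0.73, adjusted p = 0.0194, and up to 0.139 with a library left out) and was 67.6 and 12.6 FPKM in cKO 2-cell embryos against 38.1 and 51.8 in WT.

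In the thioredoxin system, 2 of 6 genes were lower in cKO 2-cell embryos (24.6% of all genes were) and none was higher (6.16%). Txnip, which binds and inhibits thioredoxin, was 150.7 and 196.1 FPKM in WT zygotes and 289.7 and 243.7 in cKO zygotes, where both cKO values were higher without passing the test (0.63, adjusted p = 1). It declined to 29.5 and 39.5 in WT 2-cell embryos and was 13.0 and 7.76 in cKO 2-cell embryos (-1.67, SE 0.30, adjusted p = 0.0106, and up to 0.0671 with a library left out). Txnrd3, a thioredoxin reductase known from testis, was 8.26 to 11.4 FPKM in zygotes, 3.69 and 2.71 in WT 2-cell embryos and at the floor in cKO 2-cell embryos (-1.06, SE 0.25, adjusted p = 0.0242, and up to 0.0929). The central enzymes passed in neither direction. Txn1 was 45.8 and 36.9 FPKM in WT and 23.8 and 46.9 in cKO 2-cell embryos, Txn2 was 137.1 and 106.7 against 90.5 and 83.5, and Txnrd1 was 9.65 and 11.2 against 14.6 and 8.04.

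The 11 thioredoxin-domain and thioredoxin-like genes held 5 lower and 1 higher gene, where 24.6% and 6.16% of all genes passed. Txndc17 (chr11:72021049-72023517), a small cytosolic disulphide reductase, was 35.6 to 50.5 FPKM in zygotes, 50.7 and 51.9 in WT 2-cell embryos and 15.6 and 8.73 in cKO 2-cell embryos (-2.04, SE 0.30, adjusted p = 0.00569). Txndc5 (chr13:38591948-38620693), a disulphide isomerase of the endoplasmic reticulum, was 17.6 and 16.6 FPKM in WT and 3.71 and 3.45 in cKO 2-cell embryos (-1.98, SE 0.21, adjusted p = 0.00237), with zygote levels of 20.7 to 28.7. For Txndc5 the genotypes overlapped in zygotes and were clearly apart at the later stage, with replicates close together in each group. Txndc16 was 22.1 and 28.8 FPKM in WT against 6.65 and 12.2 in cKO (-1.38, SE 0.30, adjusted p = 0.0187, and up to 0.104 with a library left out). Txnl4b, a splicing factor by function, was 14.1 and 18.1 FPKM against 6.99 and 5.17 (-1.27, SE 0.24, adjusted p = 0.0125, and up to 0.0525).

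Txndc2 (chr17:65986845-65991544), best known from sperm, was 63.4 to 84.9 FPKM in zygotes, fell to 18.6 and 17.7 in WT 2-cell embryos and was 5.95 and 9.09 in cKO 2-cell embryos (-1.19, SE 0.23, adjusted p = 0.0134, and up to 0.0592). Txndc9 was the higher gene of the group. It was 99 and 81 FPKM in WT zygotes, 161.9 and 138.9 in cKO zygotes, 53.5 and 55.0 in WT 2-cell embryos and 90.8 and 106.4 in cKO 2-cell embryos (0.85, SE 0.20, adjusted p = 0.0225, and up to 0.0652). Both cKO libraries lay above both WT libraries at each stage, although the zygote difference did not pass (0.74, SE 0.20, adjusted p = 1).

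The 4 glutaredoxins, some of which use glutathione to reduce protein disulphides, included no lower gene and 1 higher gene, where 24.6% and 6.16% of all genes passed. Glrx3 (chr7:144629331-144660277), an iron-sulphur cluster protein, was 3.31 and 1.81 FPKM in WT zygotes, 3.49 and 3.04 in cKO zygotes, 18.8 and 14.5 in WT 2-cell embryos and 64.0 and 93.9 in cKO 2-cell embryos. It rose 6.50-fold in WT (2.33, SE 0.32, adjusted p = 0.00161), and the cKO mean was a further 4.74-fold above WT (2.17, SE 0.32, adjusted p = 0.00570). Glrx (chr13:75977316-75987599), the abundant cytosolic form, fell in WT from 493.4 and 320.4 FPKM to 38.2 and 19.5 (-3.81, SE 0.41, adjusted p = 0.000687). In cKO 2-cell embryos Glrx was 10.2 and 16.1, below both WT values without passing the test (-1.03, SE 0.41, adjusted p = 0.109). Glrx2 appeared at the 2-cell stage in both genotypes, from the floor in every zygote to 5.39 and 6.21 FPKM in WT and 10.9 and 6.78 in cKO.

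Superoxide dismutases and catalase gave no call between genotypes. Sod1, the copper-zinc form, was 279.3 and 370.8 FPKM in WT and 499.9 and 279.5 in cKO 2-cell embryos (0.22, SE 0.39, adjusted p = 0.716), and the sign of this difference changed when libraries were scaled to an equal sum. Sod2, the manganese form of mitochondria, was 54.5 and 42.2 against 39.6 and 31.6 (-0.43, SE 0.23, adjusted p = 0.209). Cat was at the floor in 7 of the 8 libraries and 1.17 FPKM in the other, so catalase RNA was at or near the floor at both stages.

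The normal course of these genes was taken from WT embryos alone. From zygote to 2-cell 20 of the 60 genes rose (33.3%, against 34.2% of all genes) and 10 fell (16.7%, against 15.5%). Among the rising genes, Glrx2, Gpx7, Gstm1, Gstm4, Gsto1 and Gstt3 were at the floor in all 4 zygote libraries and could not have fallen. Gstm4 and Gstt3 are in the table only through WT 2-cell values, so their rise was fixed in advance. The share over all genes also holds such genes. The largest rises were in Prdx4, Gsto1, Gstm1, Gpx4, Gpx1, Gpx7, Prdx6, Gss, Hmox1 and Txnl4a, and the largest falls in Glrx, Prdx1, Txnip, Gpx6 and Txndc2, followed by Gstp1, Gstm6, Txnrd3, Txnrd1 and Txndc9. The rising genes thus included 4 of the 6 glutathione peroxidases, while 3 of the 6 thioredoxin-system genes fell and none rose. Leaving out each library in turn gave 15 to 24 rises and 7 to 14 falls. The comparison of WT 2-cell embryos with zygotes shares its WT 2-cell libraries with the comparison of genotypes, so a WT 2-cell value that is high by error raises the stage difference and lowers the genotype difference.

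At the zygote stage none of the 60 genes passed in limma, where 0.0% of all genes passed as lower and 0.0208% as higher. At an unadjusted p under 0.05, 0 were lower (0.584% of all genes) and 3 higher (2.25%). Fitting the 2 zygote groups alone likewise gave 0 calls among the 60 genes. The largest differences were in Gpx1 (-0.79), Prdx2 (-0.51) and Sod2 (-0.34) on the lower side and in Gstp2 (1.04), Gsta4 (0.98) and Gstp1 (0.80) on the higher side, all with an adjusted p of 1. Gstp2 was 11.0 and 7.39 FPKM in WT and 21.1 and 18.2 in cKO zygotes, and Gsta4, a transferase for lipid aldehydes, was 52.9 and 31.4 against 106.0 and 62.7. Both cKO libraries lay above both WT libraries for 12 genes (20.0%, against 15.8% of all genes) and below them for 5 (8.33%, against 10.2%).

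Whether the genotype difference itself changed between the stages was tested by the interaction of genotype and stage. It passed for 10 of the 60 genes (16.7%, against 11.8% of all genes), 9 with a more negative difference at the 2-cell stage (10.2% of all genes) and Glrx3 with a more positive one (1.58%). Gstm1, Gpx6, Txndc5, Txnip, Gstm4, Nqo1, Txnl4b, Txndc2 and Txndc17 were the 9. Gstm1 and Gstm4 were at the floor in every zygote library, so their interaction only repeats their 2-cell difference. No call remained among the 60 genes when a zygote library was left out, whichever of the 4 it was. Almost none remained over all genes either.

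Other redox genes were counted from a separate list of 91, of which the table holds 78. The list covers cysteine and methionine metabolism, NADPH supply, partners of NRF2, iron storage, export pumps and selenoprotein factors, among others. In cKO 2-cell embryos 21 of the 78 were lower and 6 higher, where 24.6% and 6.16% of all genes were, and their median log2 difference was -0.39 beside -0.30 over all genes. None passed in zygotes. From WT zygotes to WT 2-cell embryos 33 rose and 18 fell, where 34.2% and 15.5% of all genes did. Among the genes that passed, the largest decreases in cKO were in Me1, a cytosolic source of NADPH, with 88.8 and 87.9 FPKM in WT and 13.4 and 11.4 in cKO 2-cell embryos (-2.74, SE 0.17, adjusted p = 0.000816), and in Slc3a2, the heavy chain of the cystine transporter, with 64.9 and 105.2 against 11.8 and 12.6 (-2.67, SE 0.27, adjusted p = 0.00222). Pdia4 (-2.23), the methionine sulphoxide reductase Msrb3 (-1.92) and the selenoprotein factor Sephs2 (-1.67) followed. Slc7a11, the partner of Slc3a2 in the cystine transporter, passed in neither direction (-0.40, SE 0.34, limma adjusted p = 0.408). Its levels were 2.85 and 2.48 FPKM in WT and 1 and 2.84 in cKO 2-cell embryos.

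The 6 higher genes included Cth, the last enzyme on the route from methionine to cysteine. Cth was 54.8 and 46.6 FPKM in WT and 165.7 and 273.5 in cKO 2-cell embryos (2.05, SE 0.31, adjusted p = 0.00625). Mat2a, which makes S-adenosylmethionine, was 94.4 and 115.4 against 444.2 and 306.8 (1.81, SE 0.24, adjusted p = 0.00442). Cndp2 (1.52), the NRF2 competitor Bach1 (1.21), Cul3 (0.74), the ubiquitin ligase subunit through which KEAP1 acts, and Hpgds (0.59) made up the other 4.

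Markers of cell types were read in the same fit. All 12 oocyte genes of the list were in the table, and their summed FPKM was 17960 to 20140 in WT and 19390 to 19520 in cKO zygotes, 6535 to 8260 in WT 2-cell embryos and 1448 to 3265 in cKO 2-cell embryos, where 7 of the 12 were lower (24.6% of all genes were). Of 8 listed 2-cell genes 6 were lower in cKO 2-cell embryos (again beside 24.6%), among them Zscan4c and Zfp352, and Dppa3 was higher. The summed FPKM of the 2-cell genes went the other way, at 3527 to 3763 in WT and 6310 to 9185 in cKO 2-cell embryos. Most of this sum came from Dppa3 alone, at 2958 and 2472 FPKM in WT and 5888 and 8774 in cKO. Dppa3 was already at 5681 and 6280 FPKM in WT zygotes, so the sum does not speak for the other 2-cell genes. Among the oocyte genes, Zp3, Gdf9 and H1foo had positive differences (0.53, 0.36 and 0.27) without passing. Most markers of both lists thus passed as lower, but not all moved that way, and their part in the result was not tested. Of 15 cumulus and granulosa cell markers only Cyp19a1, Tnfaip6 and Foxl2 were in the table, with a sum of 24.3 to 28.7 FPKM in WT zygotes and 24.6 to 24.8 in cKO zygotes, nearly all from Cyp19a1. The sum was 4.38 to 10.3 in WT 2-cell embryos and 3.0 to 3.32 in cKO 2-cell embryos. Sperm markers (4 of 7 in the table) summed to 16.5 to 23.1 FPKM in WT zygotes, 18.7 to 19.7 in cKO zygotes, 7.28 to 11.4 in WT and 4.0 to 4.97 in cKO 2-cell embryos, with Tnp1 lower in cKO. Of 5 red blood cell markers, Hba-a1 and Hba-a2 were in the table, at the floor in every zygote library and summing to 9.83 to 12.3 FPKM in WT and 3.97 to 4.49 in cKO 2-cell embryos.

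**Figure D5:**
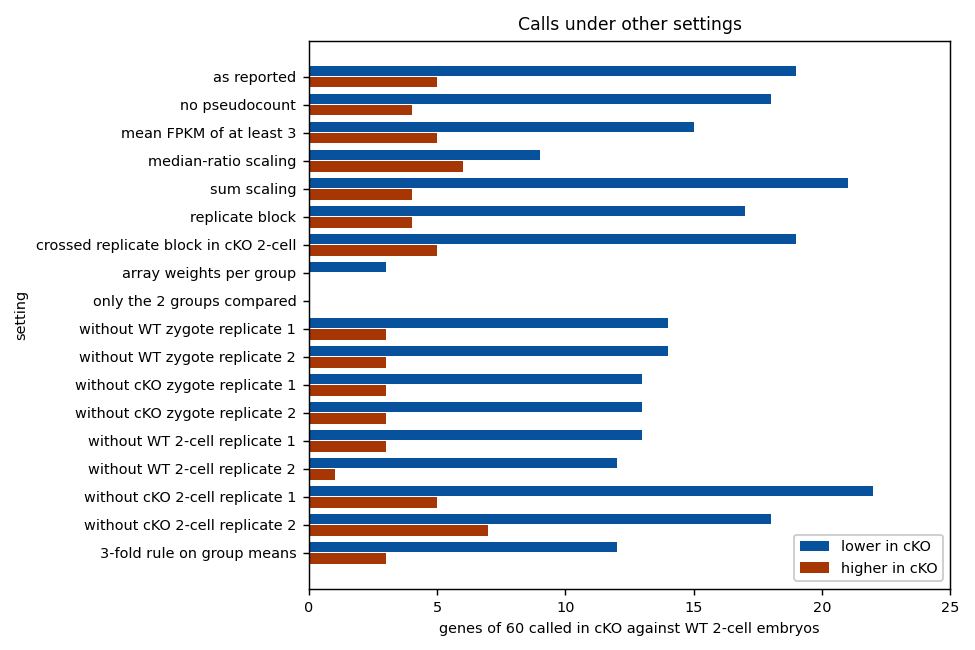
Number of the 60 genes called lower (blue) or higher (brown) in cKO than in WT 2-cell embryos (x axis) under each setting of the analysis (y axis), with the reported fit on top. The bars reach 19 lower and 5 higher as reported, are absent when only the 4 2-cell libraries were fitted, and range from 12 to 22 lower when a library was left out.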

How the data were processed

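RNA of 10 embryos per library was amplified by Smart-seq2. The authors trimmed reads to 50 bases, mapped them to mouse mm9 with TopHat2 2.1.1, computed FPKM with Cufflinks 2.2.1, and deposited the FPKM per gene after setting values below 1 to 1 and leaving out genes below 1 in every library. The gene annotation is not given in the sources used here. FPKM values hold no counts, so the depth is unknown and precision rests on 2 libraries per group. The ChIP-seq samples of the series were not analysed here.

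limma 3.58.1 (R 4.3.3) was fitted to log2(FPKM + 1) of all 14392 genes, with 4 groups in 1 model, 4 residual degrees of freedom and a trend in the prior. Benjamini-Hochberg adjustment covered all genes at 0.05. Differences on this scale understate changes of low genes. Exact permutation of 2 against 2 libraries cannot give a p under 0.333. The scripts were tested on simulated data with the same spread in every group, which does not cover the wider spread of the cKO 2-cell replicates. Figures and counts used Python 3.11.15, pandas 2.3.3, numpy 2.4.6 and matplotlib 3.10.9. Gene positions follow GENCODE M1 (mm9), where all 60 symbols were found, and shared 50-base words were counted over its protein-coding transcripts.

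Members, gene lists and marker lists were chosen with earlier results of these data known. Named were genes called between genotypes at the 2-cell stage (up to 15 per direction by size, with the other called genes added after their values were seen), up to 10 per direction called in other comparisons or otherwise the 3 largest, a fixed set of core genes, the most abundant gene of each role, Usp16, and up to 5 per direction of the separate list. Other genes were added after their values were seen, as examples.

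Same-numbered libraries of both genotypes had deviations from their group means that correlated at -0.239 (2-cell) and 0.497 (zygote), and the labels give no shared source, so the numbers were not taken as pairs. Alternatives covered the pseudocount, a filter, scaling, the model, the 3-fold rule on means and leaving out each library. Scaling to an equal sum and the crossed pairing were added after the data were seen.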

Additional observations from a re-analysis of the deposited data

Results flagged for a closer look

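The difference between cKO and WT differed between the 2-cell and zygote stages, by a limma test of the interaction adjusted over all genes, in 10 of the 60 genes. With 2 libraries in each of the 4 groups, Gstm1 had an interaction of -4.12 on the log2 scale (SE 0.41, adjusted p = 0.00692). Gstm1 was at the floor in every zygote library, so this value only repeats its 2-cell difference, and its zygote libraries add no spread. Txnip gave -2.29 (SE 0.43, adjusted p = 0.0275), from a cKO level above WT in both zygote libraries and below it in both 2-cell libraries. Txndc5 gave -1.79 (SE 0.29, adjusted p = 0.0200) and Txndc17 -1.78 (SE 0.42, adjusted p = 0.0475). Gpx6, whose zygote levels were nearly the same in both genotypes, gave -1.59 (SE 0.25, adjusted p = 0.0190). Txnl4b gave -1.50 (SE 0.34, adjusted p = 0.0440), Txndc2 -1.43 (SE 0.33, adjusted p = 0.0445) and Nqo1 -1.37 (SE 0.31, adjusted p = 0.0422). Gstm4 gave -1.05 (SE 0.24, adjusted p = 0.0421), but it was at the floor in every zygote library and both cKO 2-cell libraries and is in the table only through WT 2-cell embryos, so this value had to be negative. Glrx3 was the gene with a positive value, 1.87 (SE 0.45, adjusted p = 0.0478).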

How the results depend on the processing

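With 19 genes lower and 5 higher in cKO 2-cell embryos as reported, median-ratio scaling gave 9 lower, a separate weight per group gave 3 lower and 0 higher, fitting only the 2 groups gave 0 of each, and the 3-fold rule on means gave 12 lower and 3 higher. Leaving out each library gave 12 to 22 lower and 1 to 7 higher. The interaction, 10 genes as reported, gave 3 under median-ratio scaling, 1 with a weight per group, 4 with the replicate number as a block, 5 with the crossed pairing, and 0 to 20 without a library. The replicate block otherwise gave 17 lower and 4 higher at the 2-cell stage. A library left alone in its group is assumed to vary like the others. The sign changed for Gclm (-2.15 to 0.37) and Sod1 (-0.20 to 0.63) when a cKO 2-cell library was left out, for Sod1 with equal sums (-0.036) and for Sod2 under median-ratio scaling (0.040). The counts from zygote to 2-cell in WT stayed within 1.5 times the reported ones under every alternative. The fit of only the 2 groups also has fewer degrees of freedom, and the cause of the changes under any setting was not tested.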
